A study of Mus musculus with 24 samples.

Results

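Immediate early genes are the genes that cells transcribe within minutes of a growth factor, cytokine or stress signal, without new protein synthesis. The 10 genes described here were chosen by name: Jund, Jun, Junb, Fos and Fosb, which encode subunits of the AP-1 transcription factor; Egr1, Klf2, Nr4a1 and Ier2, which encode other nuclear regulators; and Dusp1, which encodes a phosphatase. They were chosen with earlier results of these data known, so the counts called below do not test the set against all genes. All 10 were found among the 55487 genes of the count table, and 9 of them were among the 18931 genes with enough counts to be tested. Expression was measured by bulk RNA-seq in 24 libraries of mouse Lin-Sca1+KIT+ (LSK) cells, a sorted fraction in which blood stem cells and early progenitors are found. ME cells came from Tet-On-ME mice, in which a tetracycline-responsive system drives MLL::ENL, a leukaemia fusion of Kmt2a (MLL) with Mllt1 (ENL). Sorted cells were cultured for 48 h, during which the fusion was induced, before RNA-seq. The 6 groups, with 4 libraries each, were ME and control cells from the liver at E16, from bone marrow at P14 and from bone marrow at 8wk. Age and tissue therefore cannot be told apart at E16. The labels name neither the inducer nor the alleles carried by the control mice, nor whether the 4 libraries of a group were separate animals, so p-values here reflect only how far these libraries spread, which may be technical.

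In many cell types the promoters of these genes are held ready for rapid transcription, and kinase cascades of the ERK, JNK and p38 families act on factors already bound there, such as SRF with its ternary complex partners, CREB and AP-1 itself. The transcripts are short-lived, and several of the products feed back on the signal: Dusp1 protein removes phosphate from ERK, JNK and p38 kinases. In blood progenitors Jun, Junb, Fos and Egr1 are known for parts in myeloid differentiation, and Egr1, Nr4a1 and Junb for restraining the proliferation of stem cells or progenitors.

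The promoters of 8 of the 10 genes were found in RefSeq's table for build GRCm38.p6. Of these, 4 are shown because the genes differed in the ages at which they were called higher in ME cells. Dusp1 and Klf2 were called at all 3 ages, Jun at 2, and Fos at none. Each is a stretch of 150 bases that ends just before the first annotated exon base near the RefSeq start. Capitals mark matches on either strand to any motif searched. These were the core of the cyclic AMP response element (CRE), TGACG, and the full element that contains it, TGACGTCA. A CRE-like motif, TGCGTCA, overlaps the core on the other strand. The motif bound by AP-1 was searched as TGANTCA, with a variant known from the Jun promoter written TGACATCA. The Egr motif was GCGNGGGCG, and the CArG box and the MEF2 motif were searched as well.
Dusp1, chr17:26508520-26508669, minus strand: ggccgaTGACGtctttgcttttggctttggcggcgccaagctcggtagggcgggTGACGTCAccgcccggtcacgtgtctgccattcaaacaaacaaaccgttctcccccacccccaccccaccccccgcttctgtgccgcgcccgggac
Klf2, chr8:72318883-72319032, plus strand: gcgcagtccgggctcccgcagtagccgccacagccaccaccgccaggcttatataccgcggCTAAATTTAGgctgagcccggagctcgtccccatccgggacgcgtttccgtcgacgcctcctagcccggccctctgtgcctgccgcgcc
Jun, chr4:95052223-95052372, minus strand: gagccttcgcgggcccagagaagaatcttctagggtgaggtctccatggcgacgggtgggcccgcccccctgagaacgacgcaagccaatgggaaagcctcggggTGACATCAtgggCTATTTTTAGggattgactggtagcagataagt
Fos, chr12:85473740-85473889, plus strand: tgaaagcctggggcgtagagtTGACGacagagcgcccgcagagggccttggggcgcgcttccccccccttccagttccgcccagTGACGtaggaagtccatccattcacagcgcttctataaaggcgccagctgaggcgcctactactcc

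Over the 250 bases before the RefSeq start, the Dusp1 promoter held the full CRE, a motif present in 1.55% of 32817 RefSeq promoters, and 3 matches to TGACG, of which 2 lie within that CRE. The Jun promoter held TGACATCA, found in 2.93% of promoters, and a MEF2 motif, found in 0.509%. The Klf2 promoter also held a MEF2 motif, together with 1 match to GCGNGGGCG (4.7% of promoters) and 1 to TGACG (17.7%), both before the stretch shown. The Fos promoter held 2 matches to TGACG. Of the promoters not shown, that of Jund, called higher at every age, held 0 matches to the motifs searched. RefSeq puts the Jund start at 70697739 and GENCODE at 70698949, so bases just before the latter were not searched. The Nr4a1 promoter, of a gene called at no age, held 4 matches to the CRE core, 4 to the CRE-like motif and 1 to the Egr motif. Junb had 1 match to the CRE core, and Fosb 1 to each motif found for Nr4a1. Whether matches go with calls was not tested. These matches describe the letters of the windows and not factor binding. The CArG box, present in 1.47% of promoters, was not among the 250 bases searched for Dusp1, Klf2, Jun or Fos. Bases further before the start were not searched, so a CArG box there would not be seen.

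The libraries held 33.9 to 69.3 M counts (median 47.1 M), and levels are given as CPM, counts per M of TMM-scaled library size. Mllt1 was higher in every ME library than in every control library of its age (35.7 to 89.3 CPM in ME cells and 9.90 to 29.8 CPM in control cells over the 3 ages), and so was Kmt2a. Of the 24 libraries, 3 stood apart from their groups on the first principal component: E16 ME replicate 4, 8wk ME replicate 4 and 8wk control replicate 1. The summed level of 10 LSK and stem cell markers was 2785 to 3562 CPM in E16 ME and 2699 to 3195 CPM in E16 control libraries, and 2926 to 3431 CPM in P14 ME and 3050 to 3523 CPM in P14 control libraries. At 8wk it was 3169 to 4011 CPM in ME and 2469 to 2770 CPM in control libraries, with no overlap. Most of that difference lay in Kit, which averaged 1463 CPM in 8wk ME and 487 CPM in 8wk control cells (log2 fold change 1.59 ± 0.17, SE). Of the 10 markers, 4 were called higher and 2 lower in ME cells at 8wk, beside 14.2% and 14.3% of all genes. Cd48 was among the lower ones (-1.07 ± 0.19, SE). The summed level of 12 monocyte and macrophage markers was 122 CPM in E16 ME replicate 4 against 541 to 647 CPM in the other E16 ME libraries, 182 CPM in 8wk ME replicate 4 against 985 to 1181 CPM in the other 8wk ME libraries, and 892 CPM in 8wk control replicate 1 against 177 to 207 CPM in the other 8wk controls. In bulk RNA, fewer cells of a type and less RNA per cell cannot be told apart.

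With MLL::ENL, none of the 9 tested genes was called lower, and 3 were called higher at every age: Jund, Dusp1 and Klf2. Klf2 had 23, 17 and 22 counts over the 4 control libraries at E16, P14 and 8wk. It passed the filter on low counts mainly through ME libraries, and limma-voom did not call it at any age. Egr1 and Jun were called higher at E16 and 8wk, and Junb at 8wk. Fos, Nr4a1 and Ier2 did not pass the test at any age. By edgeR's robust quasi-likelihood test, with Benjamini-Hochberg adjusted p under 0.05 over all genes tested, 5 of 9 genes were higher in ME cells at E16, 3 of 9 at P14 and 6 of 9 at 8wk. Among all tested genes, 13.3% were called higher at E16, 12.7% at P14 and 14.2% at 8wk, and 8.47%, 9.35% and 14.3% were called lower. Of all calls, 61.1% at E16 and 57.5% at P14 were higher with TMM factors, and 74.6% and 70.5% were with library size alone, which moved the median of all genes to 0.11 at both ages. The median log2 fold change of the 9 genes was 0.96 at E16, 0.99 at P14 and 1.39 at 8wk, beside 0.02, 0.03 and -0.02 for all genes tested. DESeq2 called 5, 4 and 7 of the 9 genes, and limma-voom called 4, 2 and 4. The shares of all genes above are edgeR's, and those of DESeq2 and limma-voom are not given here.

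Markers of other cell types also differed between genotypes. Of 10 B-lineage markers, 3, 8 and 3 were called higher in ME cells at E16, P14 and 8wk and 0 lower (median log2 fold change 1.89, 2.96 and 1.58), with Rag1 and Rag2 called at each age. Of all tested genes, 13.3%, 12.7% and 14.2% were called higher at those ages. The summed level of the B-lineage markers was 399 to 544 CPM in E16 ME and 428 to 483 CPM in E16 control libraries, 237 to 678 CPM in P14 ME and 278 to 438 CPM in P14 control libraries, and 234 to 339 CPM in 8wk ME and 177 to 260 CPM in 8wk control libraries. Of 7 tested megakaryocyte markers, 5 were called lower in ME cells at E16 (median log2 fold change -2.53), beside 8.47% of all genes. There they summed to 76.0 to 94.1 CPM in ME and 207 to 540 CPM in control libraries. At P14 1 of them was called higher and at 8wk 0 were called. Of 10 neutrophil markers, 1 was called lower at E16, and 0 were called at P14 or 8wk. They summed to 44.4 to 1059 CPM in E16 ME and 1126 to 6006 CPM in E16 control libraries, with no overlap. At 8wk they summed to 41.6 to 1504 CPM in ME and 19.5 to 878 CPM in control libraries. The part of these markers' cells in the changes of the 9 genes was not tested.

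**Figure D1:**
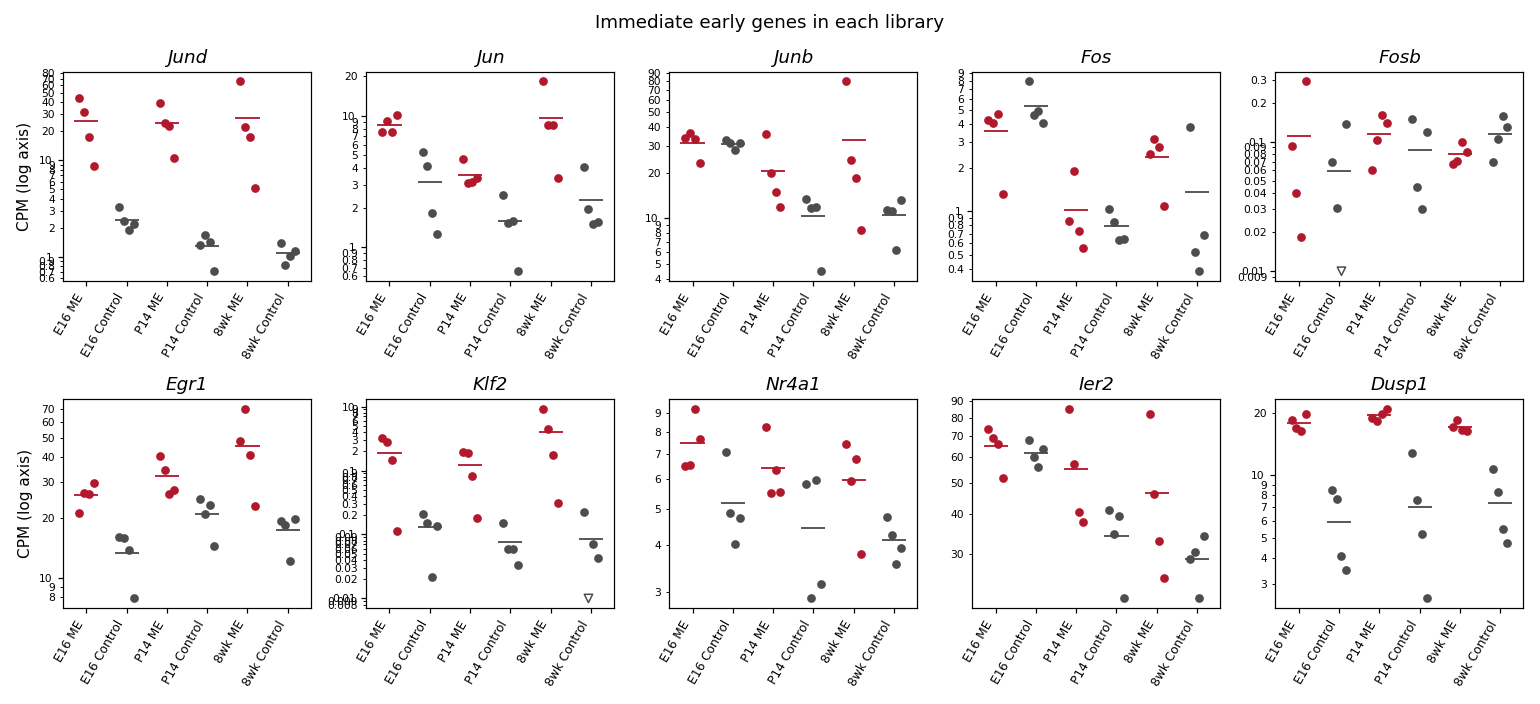
Level of each of the 10 immediate early genes in the 24 libraries, in CPM on a log axis whose range differs between panels. Points are libraries, horizontal bars are means of 4, red marks ME and grey control, and open triangles at 0.01 mark libraries with 0 counts. Jund and Dusp1 show every ME point above every control point of the same age, whereas the Fos and Ier2 points overlap.

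Jund encodes the AP-1 subunit that in many cells is the most steadily expressed of the Jun proteins, and it showed the change with the smallest adjusted p of the 9 genes at each age. At E16 it was at 44.3, 31.3, 17.2 and 8.74 CPM in ME libraries and at 3.26, 2.37, 1.87 and 2.20 CPM in control libraries. At P14 it was at 38.9, 24.2, 22.4 and 10.5 CPM in ME libraries and at 1.31, 1.68, 1.42 and 0.709 CPM in control libraries. At 8wk it was at 65.4, 21.9, 17.3 and 5.20 CPM in ME libraries and at 1.40, 0.813, 1.03 and 1.14 CPM in control libraries. Every ME library lay above every control library of its age, while the ME libraries themselves spread widely, with the lowest in E16 and 8wk being replicate 4, which stood apart. The log2 fold changes were 3.38 ± 0.56 at E16, 4.23 ± 0.56 at P14 and 4.64 ± 0.57 at 8wk (SE, n = 4 libraries a group), with adjusted p of 0.000463, 6.74e-05 and 3.87e-05 by edgeR. Without 8wk ME replicate 1 the 8wk value was 3.74, still called.

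A pair of measured facts bear on the size of the Jund change. Jund (chr8:70698949-70700616, GRCm38, plus strand, a single exon of 1668 bases in GENCODE M21) has a GC content of 67.2%, above 99.8% of tested genes, and libraries differed in how counts moved with GC content (slopes from -0.333 to 0.347 log2 units per 10 percentage points). At E16 the slopes ran from -0.0749 in control replicate 4 to 0.0824 in ME replicate 3. The trend removed was a curve fitted to each library (a spline), not these slopes. With each library's GC trend removed, the log2 fold changes were 2.18 at E16, 2.58 at P14 and 3.20 at 8wk. Jund was still called at each age (edgeR adjusted p = 0.000121, 2.23e-05 and 3.81e-06). Its exon also shares 877 bases with Gm11175 on the opposite strand, which had 0 counts in all 24 libraries. The strand setting of the counting is not given in the sources used here, so reads from the strands cannot be told apart. By the same annotation, Junb (chr8:84974484-84978718) shares 173 exon bases with Prdx2 on the opposite strand, which was at 313 to 665 CPM. Jun (chr4:95049034-95052222) shares 232 with Junos, at 0 to 1.51 CPM, and Dusp1 (chr17:26505590-26562128) shares 11 with Ergic1. Klf2 (chr8:72319033-72321656), Ier2 (chr8:84661331-84662852) and Fos (chr12:85473890-85477273) had no such overlap.

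Jun, the subunit for which the family is named and a strong activator within AP-1, was at 7.59, 9.07, 7.60 and 10.1 CPM in E16 ME libraries and at 5.27, 4.12, 1.81 and 1.27 CPM in E16 control libraries. In 8wk marrow the level was 18.3, 8.49, 8.54 and 3.34 CPM in ME libraries and 4.12, 1.97, 1.50 and 1.57 CPM in control libraries. At E16 the ME libraries all lay above the control libraries, whereas at 8wk ME replicate 4 fell below control replicate 1. Both changes were called, with log2 fold changes of 1.46 ± 0.46 at E16 and 2.07 ± 0.46 at 8wk (SE; edgeR adjusted p = 0.0308 and 0.00305). Without the 3 libraries that stood apart the 8wk value was 2.81. The E16 call was not made without ME replicate 2 (adjusted p = 0.0582), ME replicate 4 (0.0732), control replicate 3 (0.0973) or control replicate 4 (0.0945), in the same edgeR test. At P14 Jun was at 4.67, 3.11, 3.16 and 3.39 CPM in ME libraries and at 2.51, 1.54, 1.58 and 0.658 CPM in control libraries, which did not overlap. The P14 log2 fold change of 1.19 ± 0.47 missed the threshold (edgeR adjusted p = 0.0777). It passed under 6 other settings and not under 15. Among the 6 were the replicate number as a block over all ages (edgeR adjusted p = 0.00886), only the groups compared (edgeR, 0.0313) and DESeq2 (0.0382). Among the 15 was a block for the P14 libraries alone.

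Junb, which antagonises Jun at many promoters and restrains myeloid growth in mice, passed the test at 8wk but not at E16 or P14. At E16 it was at 33.6, 36.4, 33.1 and 23.1 CPM in ME libraries and at 32.8, 31.1, 28.0 and 31.5 CPM in control libraries. The 8wk values were 79.6, 24.3, 18.4 and 8.36 CPM in ME libraries and 11.4, 11.2, 6.16 and 13.3 CPM in control libraries. The E16 groups overlapped, and at 8wk a single ME library, replicate 1, stood well above the rest, while ME replicate 4 lay among the controls. The log2 fold change was 0.03 ± 0.48 at E16 (edgeR adjusted p = 0.975), 0.99 ± 0.48 at P14 (0.156) and 1.64 ± 0.48 at 8wk (0.0171). Without 8wk ME replicate 1 the 8wk value was 0.69 and no longer called (edgeR adjusted p = 0.192), and with the GC trend removed it was 0.91 (0.0558). At P14 the range was 11.9 to 35.8 CPM in ME libraries and 4.49 to 13.4 CPM in control libraries.

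Set on a common scale of CPM per kilobase of exon, Jund took a larger share of the Jun family in ME cells than in control cells. Jund made up 44.4% ± 14.2 of the summed level of the 3 genes in E16 ME cells and 9.09% ± 1.26 in E16 control cells (SD, n = 4). The share was 58.1% ± 5.80 in P14 ME cells and 13.9% ± 2.58 in P14 control cells, and 47.1% ± 4.74 in 8wk ME cells and 11.6% ± 3.55 in 8wk control cells. Junb made up 45.8%, 36.7% and 42.0% in ME cells at E16, P14 and 8wk, against 84.9%, 77.8% and 76.4% in control cells of those ages. The Jund share did not overlap between ME and control libraries at any age. The 3 genes differ in GC content, and the part of the GC trends in these shares was not tested. They also differ in the exon bases shared with other genes: 877 of 1668 for Jund, 232 of 3189 for Jun and 173 of 2301 for Junb. The full exon lengths were used, and the part of these overlaps was not tested either.

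**Figure D2:**
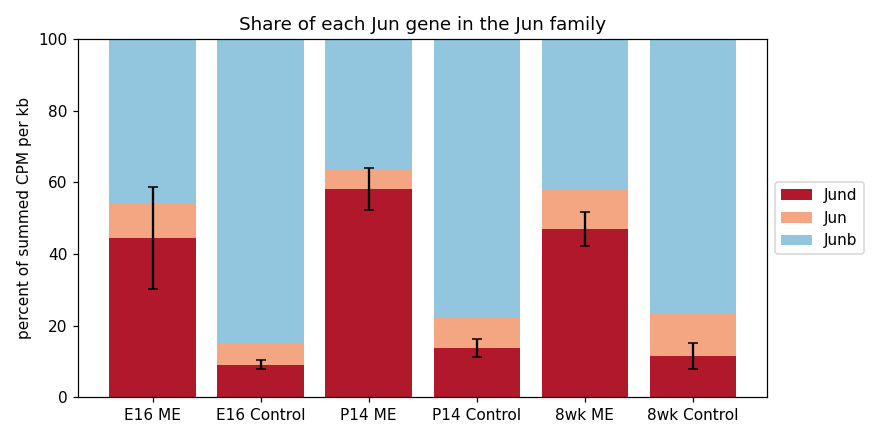
Share of Jund, Jun and Junb in their summed level, as a percentage of CPM per kilobase of exon, in each group. Bars are means of 4 libraries stacked to 100, and the error bars are the SD of the Jund share. The Jund share lies between 44.4% and 58.1% in ME groups and between 9.09% and 13.9% in control groups.

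Fos, the classical partner of the Jun proteins, was low in all groups and overlapped between genotypes at each age. It was at 4.27, 4.11, 4.73 and 1.32 CPM in E16 ME libraries and at 7.94, 4.61, 4.93 and 4.10 CPM in E16 control libraries. At P14 it was at 0.861, 1.90, 0.735 and 0.553 CPM in ME libraries and at 1.03, 0.837, 0.632 and 0.641 CPM in control libraries. At 8wk it was at 2.50, 3.18, 2.77 and 1.09 CPM in ME libraries and at 3.81, 0.524, 0.384 and 0.687 CPM in control libraries. At 8wk all ME libraries lay above 3 of the controls and all lay below control replicate 1. The log2 fold changes were -0.58 ± 0.55 at E16, 0.36 ± 0.59 at P14 and 0.79 ± 0.57 at 8wk (SE), with edgeR adjusted p of 0.492, 0.718 and 0.318. Without 8wk control replicate 1 the 8wk value was 2.16 and was called (edgeR adjusted p = 0.00131).

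The libraries with high Fos were those with high monocyte and macrophage markers. 8wk control replicate 1 had 892 CPM of the 12 monocyte and macrophage markers and 878 CPM of 10 neutrophil markers, against 177 to 207 CPM and 19.5 to 34.7 CPM in the other 8wk controls. E16 ME replicate 4, with the lowest Fos of its group, had 122 CPM of the monocyte and macrophage markers and 44.4 CPM of the neutrophil markers. Of the 12 monocyte and macrophage markers, 1 was called higher in ME cells at E16, 3 at P14 and 8 at 8wk, beside 13.3%, 12.7% and 14.2% of all genes. Genes outside the 10 with a mean of at least 5 CPM were compared, with clone-type, numbered and mt- symbols passed over. Those most like Fos over the 24 libraries in log2 CPM were Slc40a1 (Pearson r = 0.947), Csf1r (0.946) and Mtus1 (0.942). Csf1r encodes the receptor for macrophage colony-stimulating factor. The part of these cells in the Fos levels was not tested.

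**Figure D3:**
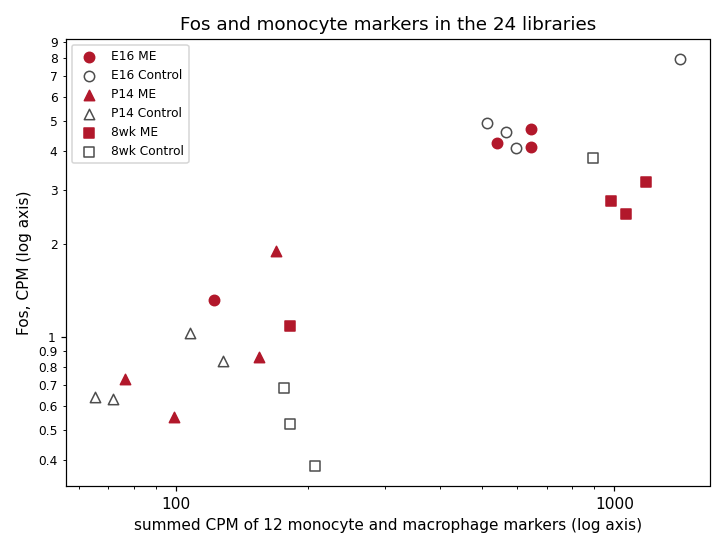
Fos level against the summed level of 12 monocyte and macrophage markers in the 24 libraries, both in CPM on log axes. Filled red symbols are ME and open symbols control libraries, with circles for E16, triangles for P14 and squares for 8wk. The libraries with marker sums of 511 CPM or more all have Fos at 2.50 CPM or more, including 8wk control replicate 1 at 3.81 CPM.

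Fosb, a Fos relative best known from neurons, was at 0.0183 to 0.291 CPM in E16 ME libraries and at 0 to 0.138 CPM in E16 control libraries. The ranges were 0.0601 to 0.159 CPM in P14 ME, 0.0301 to 0.150 CPM in P14 control, 0.0677 to 0.0988 CPM in 8wk ME and 0.0698 to 0.157 CPM in 8wk control libraries. Each group summed to between 10 and 24 counts over its 4 libraries. Fosb was the 1 gene of the 10 that the filter on low counts removed, so a difference between groups was not tested.

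Egr1, a zinc-finger factor induced by ERK signalling, was at 21.2, 26.4, 26.2 and 29.7 CPM in E16 ME libraries and at 15.9, 15.8, 13.7 and 7.90 CPM in E16 control libraries. At P14 it was at 40.7, 34.6, 26.3 and 27.3 CPM in ME libraries and at 24.9, 20.9, 23.1 and 14.4 CPM in control libraries. In 8wk marrow the level was 48.2, 70.0, 41.1 and 22.8 CPM in ME libraries and 19.2, 18.3, 12.2 and 19.6 CPM in control libraries. Every ME library was above every control library at all 3 ages, although the gap was small at P14 and at 8wk between ME replicate 4 and the controls. The log2 fold change was 0.96 ± 0.27 at E16, 0.63 ± 0.26 at P14 and 1.39 ± 0.26 at 8wk (SE). It was called at E16 and 8wk (edgeR adjusted p = 0.0132 and 0.000682) and missed the threshold at P14 (0.0945). Nab2, which encodes a corepressor that binds Egr1 protein, was, by the rule used for Fos, the gene most like Egr1 over the 24 libraries (r = 0.904).

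Klf2, a Krüppel-like factor known for keeping lymphocytes and endothelium quiescent, had the largest log2 fold change of the 9 genes at E16 and 8wk, from a very low control level. At E16 it was at 3.23, 2.75, 1.48 and 0.112 CPM in ME libraries and at 0.209, 0.154, 0.0218 and 0.138 CPM in control libraries. At P14 it was at 1.98, 1.88, 0.834 and 0.184 CPM in ME libraries and at 0.150, 0.0598, 0.0602 and 0.0338 CPM in control libraries. The 8wk values were 9.29, 4.46, 1.74 and 0.314 CPM in ME libraries and 0.223, 0, 0.0698 and 0.0429 CPM in control libraries. The groups did not overlap at P14 and 8wk, whereas at E16 ME replicate 4 lay among the controls. The control groups summed to 23, 17 and 22 Klf2 counts over 4 libraries at E16, P14 and 8wk, so the folds rest on few control counts. The log2 fold changes were 3.82 ± 1.04, 4.02 ± 1.10 and 5.34 ± 1.06 at E16, P14 and 8wk (SE; edgeR adjusted p = 0.0115, 0.0101 and 0.00104). The 8wk value was 4.48 without 8wk ME replicate 1, 6.49 without 8wk control replicate 1 and 6.87 without the 3 libraries that stood apart, and was called each time. Limma-voom did not call Klf2 at any age (adjusted p = 0.226, 0.204 and 0.0850).

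**Figure D4:**
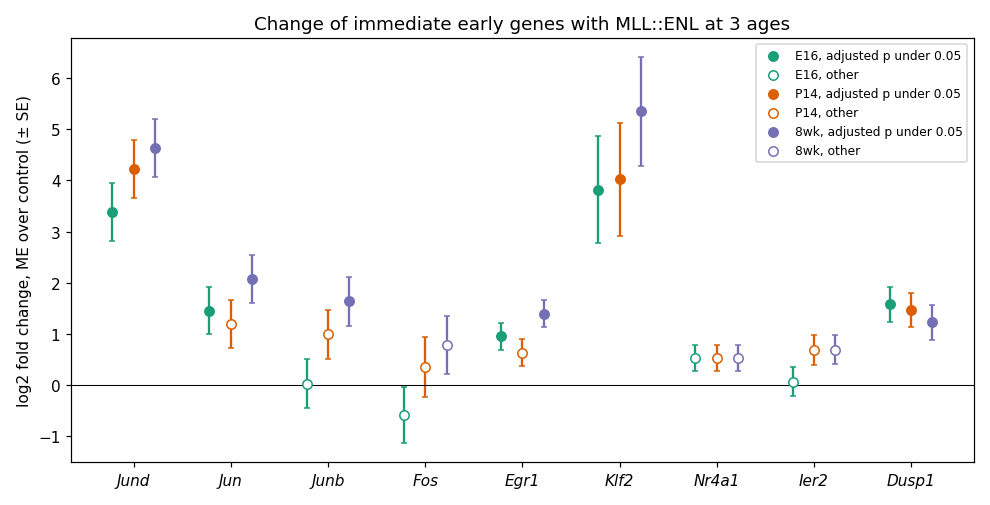
Log2 fold change of ME over control with its SE for the 9 tested genes, in green at E16, orange at P14 and purple at 8wk. Filled points have an edgeR adjusted p under 0.05. Jund and Klf2 lie highest at each age, between 3.38 and 5.34, and Nr4a1 lies near 0.53 at all 3 ages with open points.

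Dusp1, the phosphatase, was higher in ME cells at each age, and its ME levels spread little. It was at 18.4, 16.9, 16.3 and 19.6 CPM in E16 ME libraries and at 8.44, 7.72, 4.08 and 3.50 CPM in E16 control libraries. At P14 it was at 18.8, 18.2, 19.7 and 20.9 CPM in ME libraries and at 12.8, 7.63, 5.19 and 2.55 CPM in control libraries. At 8wk it was at 17.0, 18.5, 16.5 and 16.4 CPM in ME libraries and at 10.7, 8.31, 5.48 and 4.72 CPM in control libraries. No ME library overlapped the control libraries at any age, and E16 and 8wk ME replicate 4 lay with the other ME libraries. The log2 fold changes were 1.58 ± 0.34, 1.47 ± 0.34 and 1.22 ± 0.34 at E16, P14 and 8wk (SE; edgeR adjusted p = 0.0024, 0.00385 and 0.0106). Dusp1 was called in all 3 comparisons with each single library left out and with the GC trend removed.

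Nr4a1, an orphan nuclear receptor, and Ier2, a nuclear protein, did not pass the test at any age. Nr4a1 was at 6.53 to 9.26 CPM in E16 ME and 4.03 to 7.12 CPM in E16 control libraries, at 5.50 to 8.29 CPM in P14 ME and 2.89 to 5.98 CPM in P14 control libraries, and at 3.78 to 7.44 CPM in 8wk ME and 3.56 to 4.77 CPM in 8wk control libraries. Its log2 fold change was 0.53 ± 0.25, 0.53 ± 0.25 and 0.54 ± 0.25 at E16, P14 and 8wk (SE), with edgeR adjusted p of 0.135, 0.138 and 0.114. Ier2 had the highest level of the 10 per kilobase of exon in each group (42.8 CPM per kilobase on average in E16 ME cells), and in CPM it was at 51.9 to 73.8 CPM in E16 ME and 56.1 to 67.9 CPM in E16 control libraries. It was at 37.6 to 85.4 CPM in P14 ME and 21.7 to 41.0 CPM in P14 control libraries, and at 25.1 to 82.1 CPM in 8wk ME and 21.8 to 34.1 CPM in 8wk control libraries. The groups of both genes overlapped at each age. The Ier2 log2 fold change was 0.07 ± 0.29 at E16, 0.69 ± 0.29 at P14 and 0.69 ± 0.29 at 8wk (edgeR adjusted p = 0.894, 0.0954 and 0.0805). At P14 Ier2 was called with the replicate number as a block over all ages (edgeR adjusted p = 0.0447), though not with a block for the P14 libraries alone. Without 8wk ME replicate 4, Ier2 and Nr4a1 were both called at 8wk, at log2 fold changes of 0.90 and 0.70 (edgeR adjusted p = 0.0214 and 0.0395).

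**Figure D5:**
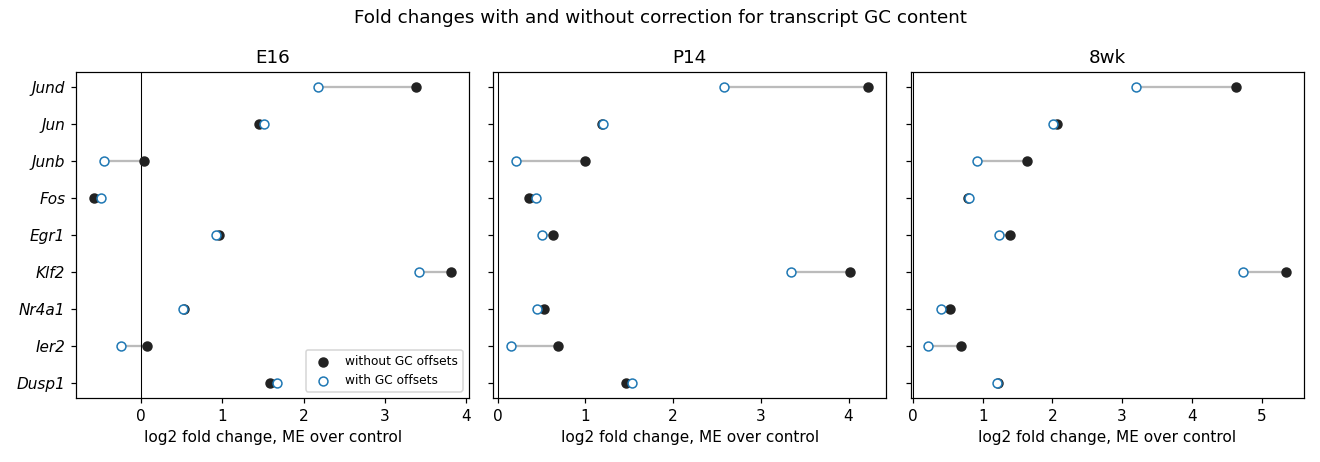
Log2 fold change of ME over control for the 9 tested genes at each age, without (filled) and with (open) removal of each library's trend with transcript GC content. The largest shifts are those of Jund, to 2.18, 2.58 and 3.20, and smaller ones are seen for Junb, Klf2 and Ier2, whereas Jun, Fos, Nr4a1 and Dusp1 barely move.

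Counted by overlap, the lowest ME library exceeded the highest control library for 4 of the 9 genes at E16, 5 at P14 and 4 at 8wk, beside 14.5%, 14.1% and 12% of all tested genes. The shared genes of these counts were Jund, Egr1 and Dusp1. Libraries with the same replicate number lay alike across ages for some genes. In ME cells Jund, Klf2 and Ier2 were highest in replicate 1 and lowest in replicate 4 at all 3 ages, and in control cells so was Dusp1. The labels do not say what a replicate number stands for.

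Over the 24 libraries, log2 CPM of Jund and Klf2 correlated at r = 0.92, and that of Junb and Ier2 at r = 0.95, as descriptions of libraries that share group, depth and GC trend. By the rule used for Fos, the genes outside the 10 most like Jund were Tysnd1 (r = 0.984), Srsf9 (0.978) and Rnf187 (0.977). Those most like Klf2 were Mapkapk2 (0.969), Clptm1l (0.965) and Ube2m (0.961). Mapkapk2 encodes a kinase activated by p38.

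Whether the response to ME differed with age was tested as the difference between log2 fold changes. None of the 9 genes was called by edgeR in P14 minus E16, 8wk minus E16 or 8wk minus P14, where 0.0211%, 0.85% and 0.301% of all tested genes were called. At an unadjusted p under 0.05 the edgeR counts were 0, 1 and 0, and the share of all genes at that cutoff is not given here. DESeq2 and limma-voom each called 0 of the 9 in all 3. The 1 gene was Junb, whose change was larger at 8wk than at E16 by 1.61 ± 0.68 on the log2 scale (SE; edgeR adjusted p = 0.274). For Jund the 8wk minus E16 difference was 1.25, with a 95% interval of -0.31 to 2.82, and for Dusp1 it was -0.36, with an interval of -1.30 to 0.58, so differences of these sizes could not be resolved. Without 8wk control replicate 1, Fos was called in 8wk minus E16 at 2.74 (edgeR adjusted p = 0.0148).

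In control cells 3 of the genes were lower after birth than in E16 liver. Fos was lower at P14 than at E16 by a log2 fold change of -2.78 ± 0.57 and Junb by -1.57 ± 0.48 (SE; edgeR adjusted p = 0.00249 and 0.034), beside 7.51% of all genes called lower. At 8wk against E16, Fos (-1.97 ± 0.56), Junb (-1.56 ± 0.48) and Ier2 (-1.11 ± 0.29) were called lower (edgeR adjusted p = 0.0154, 0.026 and 0.00858), beside 10.8% of all genes. Ier2 at P14 against E16, at -0.86 ± 0.29, had an adjusted p of 0.0502 by edgeR, and was called with the P14 replicate block (edgeR adjusted p = 0.0243), with GC offsets (0.00351), by DESeq2 (0.0208) and by limma-voom (0.0345). Without 8wk control replicate 1 the 8wk against E16 value of Fos was -3.34. The Junb values were 28.0 to 32.8 CPM in E16, 4.49 to 13.4 CPM in P14 and 6.16 to 13.3 CPM in 8wk control libraries, with no overlap between E16 and either later age. None of the 9 genes was called higher in these comparisons, where 7.61% and 12.5% of all genes were.

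Between 8wk and P14 control marrow, 0 of the 9 genes were called by edgeR, which called 7.01% of all genes higher and 5.58% lower. DESeq2 and limma-voom also called 0 of the 9. By edgeR 0 of the 9 had an unadjusted p under 0.05, a cutoff at which the share of all genes is not given here. The monocyte and macrophage markers summed to 511 to 1413 CPM in E16, 65.4 to 128 CPM in P14 and 177 to 892 CPM in 8wk control libraries. The neutrophil markers summed to 1126 to 6006 CPM in E16, 8.21 to 47.3 CPM in P14 and 19.5 to 878 CPM in 8wk control libraries, and all 10 were called lower at P14 than at E16. Erythroid markers summed to 1115 to 1660 CPM in E16, 314 to 402 CPM in P14 and 287 to 338 CPM in 8wk control libraries. At P14 and 8wk against E16, 5 and 6 of 10 erythroid and 5 and 4 of 7 megakaryocyte markers were called lower. None of either list was called higher. The shares of all genes called lower were 7.51% and 10.8%. Of 10 LSK and stem cell markers, 4 and 3 were called higher and 2 and 2 lower. The part of these markers' cells in the fall of Fos, Junb and Ier2 was not tested. The Junb call at P14 against E16 was lost when any of the 8 libraries except P14 control replicate 1 was left out (edgeR adjusted p of 0.0538 to 0.11). At 8wk against E16, both the Fos and the Junb call were lost without E16 control replicate 1 (0.0508 and 0.0514), 8wk control replicate 2 (0.0536 and 0.0545) or 8wk control replicate 3 (0.0576 and 0.0804), and the Fos call without 8wk control replicate 4 (0.0518).

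Genes that stand around these 10 in the pathway were counted from lists of their own, also chosen with earlier results of these data known. Of 22 tested other immediate early genes, 4 were higher in ME cells at E16, 5 at P14 and 13 at 8wk, and 0 were lower, with a median log2 fold change of 0.19, 0.42 and 0.99. For this and the lists that follow, the shares of all tested genes called higher were 13.3% at E16, 12.7% at P14 and 14.2% at 8wk, and those called lower were 8.47%, 9.35% and 14.3%. The E16 count of 4 of 22 is near that background. Ier5, a relative of Ier2, averaged 28.3 CPM in E16 ME and 4.83 CPM in E16 control cells, and its log2 fold changes were 2.55 ± 0.39, 2.95 ± 0.39 and 2.74 ± 0.38 at E16, P14 and 8wk (SE; largest edgeR adjusted p = 0.000137). Sgk1, a kinase gene, Rhob, a small GTPase gene, and Maff, a small Maf factor, were also called higher at all 3 ages. In control cells 6 of the 22 were lower at P14 than at E16 and 8 were lower at 8wk than at E16, beside 7.51% and 10.8% of all genes, among them Nr4a2 (-1.26 ± 0.28 and -1.47 ± 0.28) and Arc (-1.37 ± 0.33 and -2.15 ± 0.34).

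Among 11 regulators that act on immediate early promoters, 3 were higher in ME cells at E16, 4 at P14 and 5 at 8wk, and 1 was lower at 8wk, beside 13.3%, 12.7% and 14.2% of all genes called higher and 14.3% called lower at 8wk. Srf itself was higher by 2.65 ± 0.53, 3.31 ± 0.52 and 2.94 ± 0.53 on the log2 scale at E16, P14 and 8wk, and Crtc3, a CREB coactivator gene, by 1.85 ± 0.25, 1.73 ± 0.25 and 1.26 ± 0.25 (SE). Of 20 kinase and RAS genes upstream, 7, 6 and 7 were higher and 1, 3 and 0 lower at the 3 ages. Mapk14, which encodes p38 alpha, was higher by 2.40 ± 0.24, 2.59 ± 0.24 and 2.41 ± 0.24 on the log2 scale (SE). Transcript levels of kinases say nothing of their activity. Of 14 genes induced by ERK that feed back on it, 8, 5 and 6 were higher and 0 lower. Dusp5, an ERK phosphatase gene, had the smallest adjusted p of them at each age, with log2 fold changes of 3.15 ± 0.40, 3.29 ± 0.40 and 3.19 ± 0.40, and Dusp2, a phosphatase gene, had larger ones at P14 and 8wk (3.90 ± 0.76 and 4.06 ± 0.77, SE).

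Of 12 AP-1 partner and Maf genes, 3, 3 and 5 were higher in ME cells at E16, P14 and 8wk and 0 lower, beside 13.3%, 12.7% and 14.2% of all genes called higher. Among them was Bach2, a repressor that pairs with small Maf proteins, higher at each age (2.17 ± 0.44, 1.83 ± 0.43 and 1.73 ± 0.44). Of 11 Klf and Nr4a relatives, 4, 4 and 5 were higher and 0 lower, with Klf3, Klf16 and Klf9 called at all 3 ages. Of 11 heat shock genes, which encode chaperones, 1, 0 and 1 were higher in ME cells at E16, P14 and 8wk and 5, 5 and 6 were lower, beside 8.47%, 9.35% and 14.3% of all genes called lower. Hspd1, a mitochondrial chaperone gene, had log2 fold changes of -0.66 ± 0.09, -0.62 ± 0.09 and -0.60 ± 0.09, and the summed level of the 11 genes was 2666 to 3589 CPM in ME libraries and 3634 to 5620 CPM in control libraries.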

How the data were processed

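For 24 libraries, in 6 groups of 4 read from the sample titles, the authors deposited unnormalised counts for each Ensembl gene. The submitters' processing notes list STAR 2.7.9a, featureCounts 2.0.3 and the build GRCm38. Which annotation release, strand setting or filter the authors used is not given in the sources used here. Of 55774 lines, 55487 were unique identifiers, and 168 identifiers on several lines had identical counts and were kept once. A median of 63.6% of counts from 1 to 20 were even, so counts may not be independent.

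Genes were filtered with filterByExpr (minimum count 10), scaled by TMM and fitted over all 24 libraries with 1 mean per group in edgeR 4.0.16 (R 4.3.3), by the robust quasi-likelihood test with Benjamini-Hochberg adjustment within each of 9 comparisons. The fit was tested on simulated data. Library totals were 33.9 to 69.3 M counts, so levels under 1 CPM are based on few reads. Errors of log2 fold changes are SE, and those of shares SD over 4 libraries. DESeq2 1.42.0, limma-voom (limma 3.58.1), other scalings and filters, GC offsets from GENCODE M21 transcripts (a spline per library), replicate blocks and leaving out libraries were alternatives. Same-numbered ME and control libraries deviated together at P14 (correlations 0.137 to 0.232) and not at E16 (-0.0434 to 0.000655) or 8wk (-0.0882 to 0.118), so within an age numbers were taken to pair libraries at P14 alone. Even there, ME replicate 2 correlated more with control replicate 1 (0.157) than with control replicate 2 (0.143). ME replicate 3 likewise correlated more with control replicate 4 (0.242) than with control replicate 3 (0.137), so the pairing by number is uncertain. Over all 15 pairs of groups, a check added after the values were seen, 29 of 60 same-numbered correlations were over 0.1 (-0.198 to 0.478), and all 4 were in 2 pairs: P14 ME with P14 control and E16 ME with 8wk ME. What a number marks is not given in the labels, and the block over all ages was one of the alternatives.

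The members and lists were chosen with earlier results of these data known. All 10 members are named, with up to 4 genes of smallest adjusted p per list. For Jund, Klf2, Fos and Egr1, genes most alike are named, with clone-type, numbered and mt- symbols passed over. Promoters are RefSeq's.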

Additional observations from a re-analysis of the deposited data

Results flagged for a closer look

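In a screen of the 60 sets of 4 libraries (10 genes in 6 groups), a library far from the other 3 of its group was found for 2 sets; chance gives about 1 in 20. Fos in 8wk control replicate 1 was at 3.81 CPM, against 0.384 to 0.687 CPM in the other 8wk control libraries. Egr1 in 8wk control replicate 3 was at 12.2 CPM, against 18.3 to 19.6 CPM in the other 8wk control libraries; the same library had the lowest GC slope of the 24, at -0.333 (log2 per 10 percentage points of GC).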

How the results depend on the processing

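Over 81 results (9 genes in 9 comparisons), each under 18 to 29 other settings, no called log2 fold change turned its direction; 33 calls were lost and 37 gained. Of genes called in ME against control at P14, 3 became 5 with the replicate block (Jun and Ier2) and 5 without the libraries that stand apart (Jun and Egr1), a setting chosen after seeing the data, as were the P14 blocks. Without those libraries, 1 of the 9, Fos, was called in 8wk minus E16 and 1 in 8wk minus P14. In control P14 against E16, 2 became 1 without a filter, 4 with only the groups compared and 5 with GC offsets and replicate block. In control 8wk against E16, 3 became 1 without a filter. For these 2 comparisons and for ME at P14, the shares of all genes called under the same settings are not given here. These moves can therefore not be read against all genes. Klf2 was removed by the filter at E16 and P14 when only the groups compared were fitted. The P14 replicate block changed no ME call of the 9 genes. Leaving out single libraries gave 4 to 5, 3 to 4 and 5 to 8 called at E16, P14 and 8wk, 0 to 0, 0 to 1 and 0 to 0 in P14 minus E16, 8wk minus E16 and 8wk minus P14, and 1 to 2, 1 to 3 and 0 to 0 in control P14 against E16, 8wk against E16 and 8wk against P14.

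Over all genes, calls at 8wk were 5392, and 2907 with only the groups compared. P14 minus E16 had 4, 29 with DESeq2 and 10 without the libraries apart. 8wk minus E16 had 161, 107 without a filter, 250 with at least 1 CPM in 4 libraries, 603 with DESeq2, 55 with only the groups compared, 357 with the replicate block, 386 with GC offsets and replicate block and 1362 without the libraries apart. 8wk minus P14 had 57, 298 with DESeq2, 0 with only the groups compared, 1009 without the libraries apart, 12 with the P14 replicate block and 14 with that and GC offsets. Control 8wk against P14 had 2384, 1483 without a filter, 1092 with only the groups compared and 3605 without the libraries apart; its share of higher calls was 55.7%, and 43.2% with library size alone. Leaving out single libraries gave 3024 to 3719, 2875 to 4409 and 3433 to 6571 for ME at E16, P14 and 8wk, 1 to 5, 48 to 896 and 4 to 369 for the differences in the order above, and 2091 to 2593, 3333 to 4916 and 929 to 3115 for the control ages. The cause of these moves was not tested, other than that fewer libraries or genes entered where a setting left them out. Low counts limit what can be said of Fosb and of control Klf2.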
